A study of Mus musculus with 6 samples.

Results

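The data describe open chromatin and Tfcp2l1 binding around 10 imprinted growth genes of the mouse, namely Igf2, H19, Igf2r, Grb10, Dlk1, Meg3, Peg3, Mest, Snrpn and Kcnq1ot1, out of 55450 genes of the GENCODE annotation (GRCm38, also called mm10). For each gene every ATAC-seq peak inside the gene or within 20 kb of it was taken, which gave 83 peaks in 4 libraries and 65 separate regions of 170532 in the whole series. Tfcp2l1 ChIP-seq peaks were taken up to 200 kb from a gene's transcription start site (TSS), which gave 2 of 1005 peaks.

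The cells were mouse embryonic fibroblasts (MEFs) of the inbred strain C57BL/6J, which for ATAC-seq came from E13.5 embryos. The ATAC-seq libraries were labelled Hyp-Imm (immortalized MEFs in 3% oxygen), Hyp-Pro (proliferating MEFs at passage 1 in 3% oxygen), Norm-Sen (senescent MEFs in 20% oxygen) and Norm-Pro (proliferating MEFs at passage 1 in 20% oxygen). The ChIP-seq libraries, made with an antibody against Tfcp2l1, came from immortalized MEFs in 3% oxygen (Hyp-Imm) and senescent MEFs in 20% oxygen (Norm-Sen). The study asked how chromatin differs between MEFs that escape senescence in low oxygen and MEFs that senesce in 20% oxygen. There was 1 library per condition, so no replicate error exists and no difference between conditions could be tested.

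The sample labels and the names of the deposited ATAC-seq files disagree for all 4 libraries. The file of Hyp-Imm carries the name of Norm-Sen, the file of Hyp-Pro that of Norm-Pro, the file of Norm-Sen that of Hyp-Pro and the file of Norm-Pro that of Hyp-Imm. The labels are used below, and every contrast of oxygen or of proliferative state at these genes rests on them. By the file names both Norm libraries would be the 3% oxygen libraries and both Hyp libraries the 20% oxygen libraries.

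An imprinted gene is expressed mainly from 1 of its parental copies. The choice is carried by DNA methylation at CpG dinucleotides that is set in the egg or sperm, and the marked stretch often lies at a promoter or at the start of a long non-coding RNA. Many imprinted genes act on fetal growth, those expressed from the paternal copy often promoting it and those expressed from the maternal copy often limiting it. The MEFs were of an inbred strain and the files hold peaks and no reads, so the parental copies could not be separated and a peak does not tell which copy was open.

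Each peak carries a fold enrichment, the ratio of reads at the summit to those expected locally in that library, and a −log10 q, for which a larger value is a firmer call. Both depend on depth, so they are given within a library, with the rank of the peak by −log10 q in its own list or that rank as a percent of the list (a low percent is a strong peak). The lists held 37770 peaks in Hyp-Imm, 47523 in Hyp-Pro, 61408 in Norm-Sen and 69122 in Norm-Pro. The background derived from the fold values was 0.445 reads per position in Hyp-Imm, 0.956 in Hyp-Pro, 1.77 in Norm-Sen and 1.24 in Norm-Pro, so the library labelled Hyp-Imm was the shallowest and had the shortest list. A missing peak there may lie below its depth, which was not tested. Of 14 fibroblast markers, 4 had a peak at a TSS in Hyp-Imm, 8 in Hyp-Pro, 7 in Norm-Sen and 8 in Norm-Pro, with Fn1, Vim, Twist1 and Col1a2 in every library and Col3a1, Lum and Prrx1 in none. Of 18 markers of blood, endothelial, epithelial, pluripotent, muscle, neuronal and germ cells, 3 had one in Hyp-Imm, 5 in Hyp-Pro, 7 in Norm-Sen and 5 in Norm-Pro, and the germ cell gene Dazl alone had one in every library. The fibroblast share was 28.6% in Hyp-Imm, 57.1% in both Hyp-Pro and Norm-Pro, and 7 of 14 in Norm-Sen. Of all coding genes 35.5% had one in Hyp-Imm, 49.5% in Hyp-Pro, 53.0% in Norm-Sen and 54.8% in Norm-Pro. The fibroblast markers thus lay near coding genes at large, and their peaks alone do not show cell identity. The other markers lay lower, at 16.7% in Hyp-Imm, 27.8% in Hyp-Pro and Norm-Pro, and 38.9% in Norm-Sen.

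The sequences of 6 regions on which the account turns are shown first, from the RefSeq copy of GRCm38. They are the bases at the stronger of the 2 regions open in all 4 libraries, a stretch near the start of Airn, and the Peg3 intron. The others are the starts of Mest and Kcnq1ot1 that were open in the same pair of libraries, and the highest Grb10 peak. A sequence is named for a start within 1 kb of it, and those of Zim1, Airn and Kcnq1ot1 do not hold the start base itself. Other regions shared by libraries are given by position only. Capitals mark CpG in the first pair and in the Kcnq1ot1 start, the YY1 core GCCATNTT in both introns and the ZFP57 hexamer TGCCGC in the Mest start, on either strand.
Zim1 start, bases under the peaks of all 4 libraries, chr7:6696507-6696618, plus strand: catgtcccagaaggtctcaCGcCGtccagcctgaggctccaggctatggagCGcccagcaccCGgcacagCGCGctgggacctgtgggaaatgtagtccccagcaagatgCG
Airn start in an Igf2r intron, bases under the peaks of 3 libraries, chr17:12741867-12741949, plus strand: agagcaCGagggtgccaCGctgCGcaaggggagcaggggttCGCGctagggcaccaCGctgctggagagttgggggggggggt
Peg3 first intron, 300 bases of the merged region with 2 of its 4 YY1 cores, chr7:6728335-6728634, minus strand: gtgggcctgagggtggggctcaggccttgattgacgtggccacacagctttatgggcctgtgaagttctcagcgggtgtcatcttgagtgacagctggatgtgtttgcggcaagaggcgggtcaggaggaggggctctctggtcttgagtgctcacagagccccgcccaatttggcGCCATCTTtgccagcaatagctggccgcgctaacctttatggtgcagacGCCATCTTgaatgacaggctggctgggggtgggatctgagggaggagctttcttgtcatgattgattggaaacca
Mest inner start, Norm-Sen peak up to 30 bases past the start, chr6:30737975-30738079, plus strand: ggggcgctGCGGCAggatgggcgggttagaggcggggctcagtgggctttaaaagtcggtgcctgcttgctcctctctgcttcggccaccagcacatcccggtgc
Kcnq1ot1 start, Norm-Sen peak, chr7:143296563-143296749, minus strand: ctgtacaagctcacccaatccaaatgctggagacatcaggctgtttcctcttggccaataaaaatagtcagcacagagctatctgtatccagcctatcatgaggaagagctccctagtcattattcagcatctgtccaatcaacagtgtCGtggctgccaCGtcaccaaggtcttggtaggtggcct
Grb10 intron, Hyp-Pro peak, chr11:11939700-11939938, minus strand: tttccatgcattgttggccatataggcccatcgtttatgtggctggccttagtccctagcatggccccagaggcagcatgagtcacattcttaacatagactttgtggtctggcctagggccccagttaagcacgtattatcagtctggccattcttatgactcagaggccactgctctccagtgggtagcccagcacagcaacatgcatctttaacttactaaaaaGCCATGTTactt

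The 10 genes differed widely in the number of peaks called at them, over windows of unequal length. The window was 42615 bp at H19, 70726 bp at Meg3, 66540 bp at Peg3, 148176 bp at Grb10 and 197725 bp at Snrpn. Peaks near the 10 genes numbered 19 in Hyp-Imm, 15 in Hyp-Pro, 23 in Norm-Sen and 26 in Norm-Pro. Grb10 held 25 of the 83 peaks and Peg3 held 16, whereas H19 and Meg3, a pair of maternally expressed non-coding RNAs, had no peak within 20 kb in any library. Of the 10 genes 8 had a peak in the gene or within 20 kb in Hyp-Imm, 6 in Hyp-Pro, 7 in Norm-Sen and 8 in Norm-Pro. Among all 30751 coding, lincRNA and antisense genes 69.1% had one in Hyp-Imm, 76.4% in Hyp-Pro, 81.3% in Norm-Sen and 83.1% in Norm-Pro. The counts of the imprinted genes lie near that background, and their windows were longer, with a median of 68.6 kb against 53.2 kb.

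**Figure D1:**
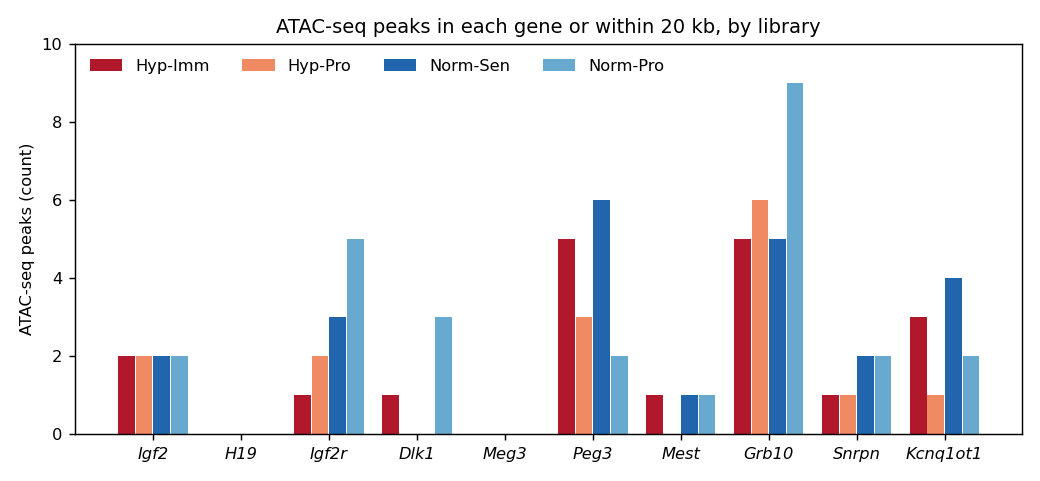
Number of ATAC-seq peaks (vertical axis) inside each imprinted gene or within 20 kb of it (horizontal axis), with 1 bar per library in the order Hyp-Imm, Hyp-Pro, Norm-Sen, Norm-Pro. Grb10 and Peg3 have the most peaks, 25 and 16 over the 4 libraries, and H19 and Meg3 have 0.

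Over the windows, 0.958 Mb in all, the density was 19.8 peaks per Mb in Hyp-Imm, 15.7 in Hyp-Pro, 24.0 in Norm-Sen and 27.2 in Norm-Pro. The genome as a whole had 13.9 peaks per Mb in Hyp-Imm, 17.4 in Hyp-Pro, 22.5 in Norm-Sen and 25.4 in Norm-Pro. The density near the imprinted genes thus lay near that of the genome in Hyp-Pro, Norm-Sen and Norm-Pro. It was above it in Hyp-Imm, on 19 peaks, and the difference was not tested. The genome value also covers stretches far from any gene, which these windows do not. With the 37770 strongest peaks of each library the counts were 19 in Hyp-Imm, 11 in Hyp-Pro, 13 in Norm-Sen and 13 in Norm-Pro, so Hyp-Imm then had the most and not fewer than the Norm libraries. The peaks had a median width of 120 bp and folds between 3.02 and 8.94, and 19 of the 83 had the smallest width the caller gave, 100 bp. Over whole lists the median width was 107 to 120 bp and 21.2 to 37.7% of peaks had that width. Their median rank lay near the middle of each list, at 50.6% in Hyp-Imm, 52.4% in Hyp-Pro, 53.3% in Norm-Sen and 54.4% in Norm-Pro.

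A peak within 1 kb of an annotated transcript start was found at 3 of the 10 genes in Hyp-Imm, 3 in Hyp-Pro, 6 in Norm-Sen and 5 in Norm-Pro. Of the 7 coding genes 3 had one in Hyp-Imm, 3 in Hyp-Pro, 5 in Norm-Sen and 4 in Norm-Pro, and of all coding genes 35.5% had one in Hyp-Imm, 49.5% in Hyp-Pro, 53.0% in Norm-Sen and 54.8% in Norm-Pro. Of the 3 non-coding genes only Kcnq1ot1 had one, in Norm-Sen and Norm-Pro. Among all lincRNA and antisense genes the share was 10.6% in Hyp-Imm, 15.3% in Hyp-Pro, 17.3% in Norm-Sen and 18.5% in Norm-Pro. With so few genes a difference from these backgrounds could not be told.

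By library the genes differed as follows. Igf2 had a start peak in all 4 libraries, a pattern shared by 26.8% of the 21938 coding genes, and Igf2r and Grb10 had one in every library but Hyp-Imm, as did 12.1%. Mest had one in Norm-Sen and Norm-Pro only (4.22% of coding genes), as did Kcnq1ot1 (1.94% of 8813 lincRNA and antisense genes). Peg3 had one in Norm-Sen only (3.9% of coding genes) and Dlk1 and Snrpn in Hyp-Imm only (1.92%). H19 and Meg3 had none, as did 69.7% of lincRNA and antisense genes.

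Several of these patterns depended on the settings. Within 500 bp of a start Igf2 had a peak in Hyp-Imm and Hyp-Pro only and Igf2r in Norm-Sen and Norm-Pro only, and within 2 kb Peg3 also had one in all 4 libraries, and Dlk1 and Snrpn also had one in Norm-Pro. With the same number of peaks from each library, Igf2 kept a start peak in Hyp-Imm and Norm-Sen, Igf2r in Hyp-Pro and Norm-Pro, and Mest in Norm-Sen alone, while the other 7 genes had the pattern given above. At a −log10 q of at least 5 only Igf2, Mest and Kcnq1ot1 in Norm-Sen and Grb10 in Hyp-Pro and Norm-Pro had one.

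**Figure D2:**
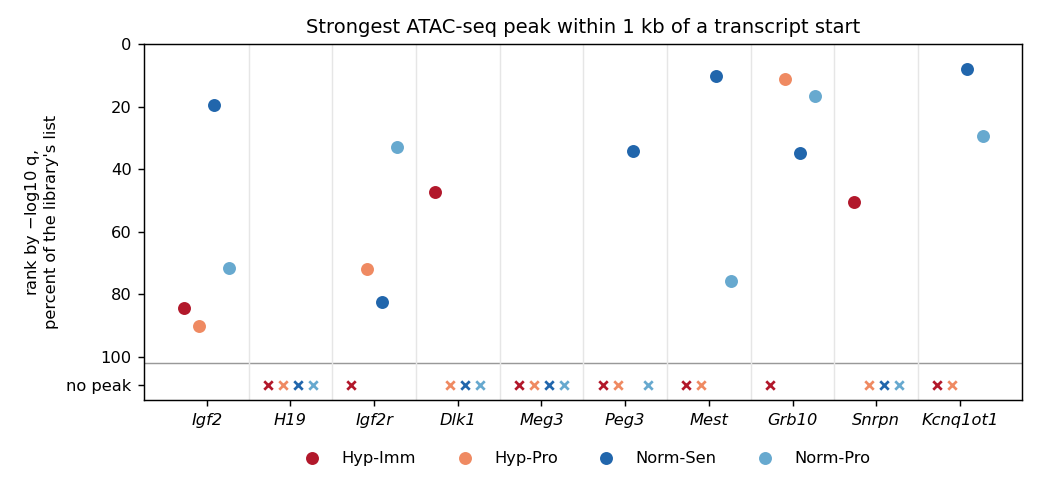
Rank of the strongest ATAC-seq peak within 1 kb of a transcript start of each gene, as a percent of the library's list (vertical axis, strong peaks at the top), with crosses where no peak was called. Igf2 has a point in every library at this distance, H19 and Meg3 have crosses only, and the highest point is Kcnq1ot1 in Norm-Sen at 8.13%.

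Igf2 encodes insulin-like growth factor 2, a fetal growth factor expressed from the paternal copy, and had 2 peaks in every library. The peaks at its starts were not at the same place in all libraries. At an inner start, in a region of 170 bp (chr7:142659257-142659426) with 27 CpG and 80% GC, a peak was called in Hyp-Imm with a −log10 q of 2.26 and in Hyp-Pro with 2.55, and in neither Norm library. Both were weak, at 84.3% of the Hyp-Imm list and 90.1% of the Hyp-Pro list.

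A second open stretch lay about 1 kb upstream of the outermost Igf2 start, in exons of the antisense transcripts Igf2os and Gm49394. The region chr7:142667797-142668047 was called in Hyp-Imm (−log10 q of 2.24), in Norm-Sen (5.32) and in Norm-Pro (1.90). The Norm-Sen peak was the strongest of the 8 Igf2 peaks, at rank 12044 or 19.6% of its list. Norm-Pro had a further peak just nearer to the gene (2.91) and Hyp-Pro one just farther from it (3.84), so each library had a call within this stretch. The remaining Igf2 peak, in Norm-Sen alone, lay beyond the end of the gene (2.93).

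H19, the non-coding RNA expressed from the maternal copy of the same domain, is known for a CTCF-bound element upstream of its start that separates Igf2 from shared enhancers. No peak lay within 20 kb of H19 in any library, so no open region was called at that element. The peak nearest to its start was 63.7 kb downstream in Hyp-Imm, 33.0 kb upstream in Hyp-Pro, 24.7 kb upstream in Norm-Sen and 44.7 kb downstream in Norm-Pro. The 72.6 kb between H19 and Igf2 held 0 peaks in Hyp-Imm, 1 in Hyp-Pro, 2 in Norm-Sen and 0 in Norm-Pro.

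Igf2r encodes the receptor that takes up IGF2 for breakdown and is expressed from the maternal copy in most mouse tissues, while the antisense RNA Airn starts in an intron of Igf2r on the paternal copy. Airn had a peak near its start in 3 libraries, in the region chr17:12741767-12742002 with 22 CpG in 236 bp. The summits lay 479 bp past that start in Hyp-Imm, 457 bp in Hyp-Pro and 565 bp in Norm-Sen. The fold and −log10 q were 5.18 and 3.6 in Hyp-Imm, 5.03 and 4.95 in Hyp-Pro, and 3.65 and 3.04 in Norm-Sen. No peak was called in Norm-Pro. The promoter of Igf2r itself showed another distribution. Norm-Pro had 2 peaks there, with −log10 q of 3.97 and 3.94, Norm-Sen had 1 at 2.71, and neither Hyp library had one. The Hyp-Pro start peak counted above (3.04) lay near an inner Igf2r start, 17.8 kb into the gene. The other Igf2r peaks were 1 in Norm-Sen (4.02) and 3 in Norm-Pro (2.66 to 4.33), all inside the gene.

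Grb10 encodes an adaptor protein that dampens signalling from the insulin and IGF1 receptors and is expressed from the maternal copy in most tissues. It had 5 peaks in Hyp-Imm, 6 in Hyp-Pro, 5 in Norm-Sen and 9 in Norm-Pro. The strongest peak of any Grb10 library was the Hyp-Pro intron peak shown above, with a fold of 8.94, a −log10 q of 12.9 and rank 1029, and Norm-Pro had a peak in the same place at 3.12, rank 38146. At 239 bp with 2 CpG and 48.5% GC it was unlike the starts of the gene, and it held 1 YY1 core.

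The CpG-rich starts of Grb10 were open in 3 libraries. At the region chr11:12037161-12037453, with 36 CpG, Hyp-Pro had a peak at a −log10 q of 6.90 (rank 5347) and Norm-Pro one at 2.31, and Norm-Pro had 2 more within 1 kb, at 4.07 and 5.50. An inner start at chr11:12025839-12026039, with 21 CpG, was called in Hyp-Pro (3.84), Norm-Sen (4.21) and Norm-Pro (3.91). Hyp-Pro had 2 more peaks near starts (3.53 and 2.96) and 1 in an exon (2.75). Norm-Sen had 3 in introns (3.4 to 4.76), and the other Norm-Pro peaks had −log10 q between 1.83 and 3.20. Hyp-Imm had no peak within 1 kb of any Grb10 start. Its 5 peaks had −log10 q between 2.1 and 3.81, and the highest, upstream of the gene at chr11:12048208-12048355, was shared with Norm-Sen (3.30).

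Dlk1 encodes a transmembrane protein of the Notch ligand family that restrains differentiation of fat cell precursors and is expressed from the paternal copy. Its start was open in Hyp-Imm alone, by 1 peak of 100 bp with 13 CpG, a −log10 q of 3.10 and a rank at 47.2% of the list. Norm-Pro had 3 peaks near the gene, none at a start (2.54, 2.47 and 3.10), and Hyp-Pro and Norm-Sen had none within 20 kb. Meg3, the maternally expressed non-coding RNA of the same cluster, had its nearest peak 61.1 kb downstream of its start in Hyp-Imm, 77.1 kb downstream in Hyp-Pro, 147 kb upstream in Norm-Sen and 56.8 kb upstream in Norm-Pro. The 77.7 kb between Dlk1 and Meg3 held 1 ATAC-seq peak, in Norm-Pro.

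Peg3 encodes a zinc finger protein expressed from the paternal copy, and its locus held the 2 regions that were open in all 4 libraries. The first lay at the start of the neighbouring imprinted gene Zim1, at chr7:6696449-6696676. Its fold and −log10 q were 6.99 and 6.58 in Hyp-Imm, 6.73 and 9.53 in Hyp-Pro, 5.88 and 8.92 in Norm-Sen, and 7.54 and 13 in Norm-Pro. It was the strongest peak near the 10 genes in Hyp-Imm, Norm-Sen and Norm-Pro, at ranks 1888, 3548 and 1448, and it stood at rank 2435 in Hyp-Pro. In every library it was within the top 5.78% of the list.

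The other lay in the first intron of Peg3, about 2 kb past the start, where imprinting control and YY1 binding have been described in the mouse. The merged region chr7:6728335-6728925 held 4 YY1 cores and 18 CpG. The peak had a −log10 q of 2.18 and rank 32026 in Hyp-Imm, 9.29 and rank 2602 in Hyp-Pro, 5.54 and rank 11174 in Norm-Sen, and 8.31 and rank 4630 in Norm-Pro. Its breadth also differed, at 105 bp in Hyp-Imm, 439 bp in Hyp-Pro, 281 bp in Norm-Sen and 549 bp in Norm-Pro. In the whole Hyp-Imm list 37.7% of peaks had the smallest width, the highest share of the ATAC-seq lists, and the difference in breadth was not tested. The Hyp-Imm peak touched the edge of the region only and did not overlap the Norm-Sen peak. Hyp-Imm had a stronger peak of its own in the same intron, at chr7:6727546-6727682 (5.42, rank 3432), and 1 in a Peg3 exon at chr7:6707862-6707966 (4.84). The start of Peg3 itself had peaks only in Norm-Sen, at 4.25 and 3.57. The other peaks of the locus were weak and in 1 library each, at 2.33 in Hyp-Imm, 2.62 in Hyp-Pro in repeat sequence, and 2.17 and 2.73 in Norm-Sen.

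Mest encodes a protein of the alpha/beta hydrolase fold expressed from the paternal copy. An inner start of the gene, at chr6:30737940-30738139 with 16 CpG and 2 ZFP57 hexamers, was open in Norm-Sen with a fold of 5.08, a −log10 q of 6.84 and rank 6360, and in Norm-Pro with a fold of 3.83, a −log10 q of 2.72 and rank 52471. Hyp-Imm had 1 peak in another Mest intron (chr6:30727061-30727224, −log10 q of 2.55), which held 4 YY1 cores, as many as the Peg3 intron region, and Hyp-Pro had none within 20 kb.

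Kcnq1ot1 is a long non-coding RNA that runs antisense to Kcnq1 from the paternal copy and silences neighbouring genes in cis. Its start, at chr7:143296478-143296749 with 10 CpG, was open in the same pair of libraries as that of Mest. The Norm-Sen peak ended 14 bp upstream of the start and held 2 of these CpG. The fold, −log10 q and rank were 5.34, 7.61 and 4990 in Norm-Sen and 4.52, 4.29 and 20275 in Norm-Pro. The Norm-Sen peak stood in the top 8.13% of its list, and no start peak was called in either Hyp library. Hyp-Imm had 3 peaks along the transcript (3.08 to 3.81), 2 of which were mostly repeat sequence, and Hyp-Pro had 1 beyond its end (3.34). Norm-Sen had 3 further peaks, along the transcript or beyond its end (2.17 to 3.32), and Norm-Pro had 1 along it (5.57), wholly in repeat sequence. Regions open in both Norm libraries and in neither Hyp library were 2 of the 65, these starts, or 3.08%, and 2.62% of all regions had the same pattern. By the file names the same pattern would be 3% oxygen only.

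Snrpn encodes a protein of the splicing machinery expressed from the paternal copy. At the start it shares with Snurf a peak was called in Hyp-Imm alone (100 bp, −log10 q of 2.89, 50.6% of the list). The strongest Snrpn peak, in Norm-Sen (7.26), lay wholly in repeat sequence in an intron, a second Norm-Sen peak beside it (2.17) did as well, and the higher of the 2 Norm-Pro peaks (5.57) lay in another intron and was 53.8% repeat. The single Hyp-Pro peak (3.84) and the other Norm-Pro peak (1.83) were not at a Snrpn start.

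**Figure D3:**
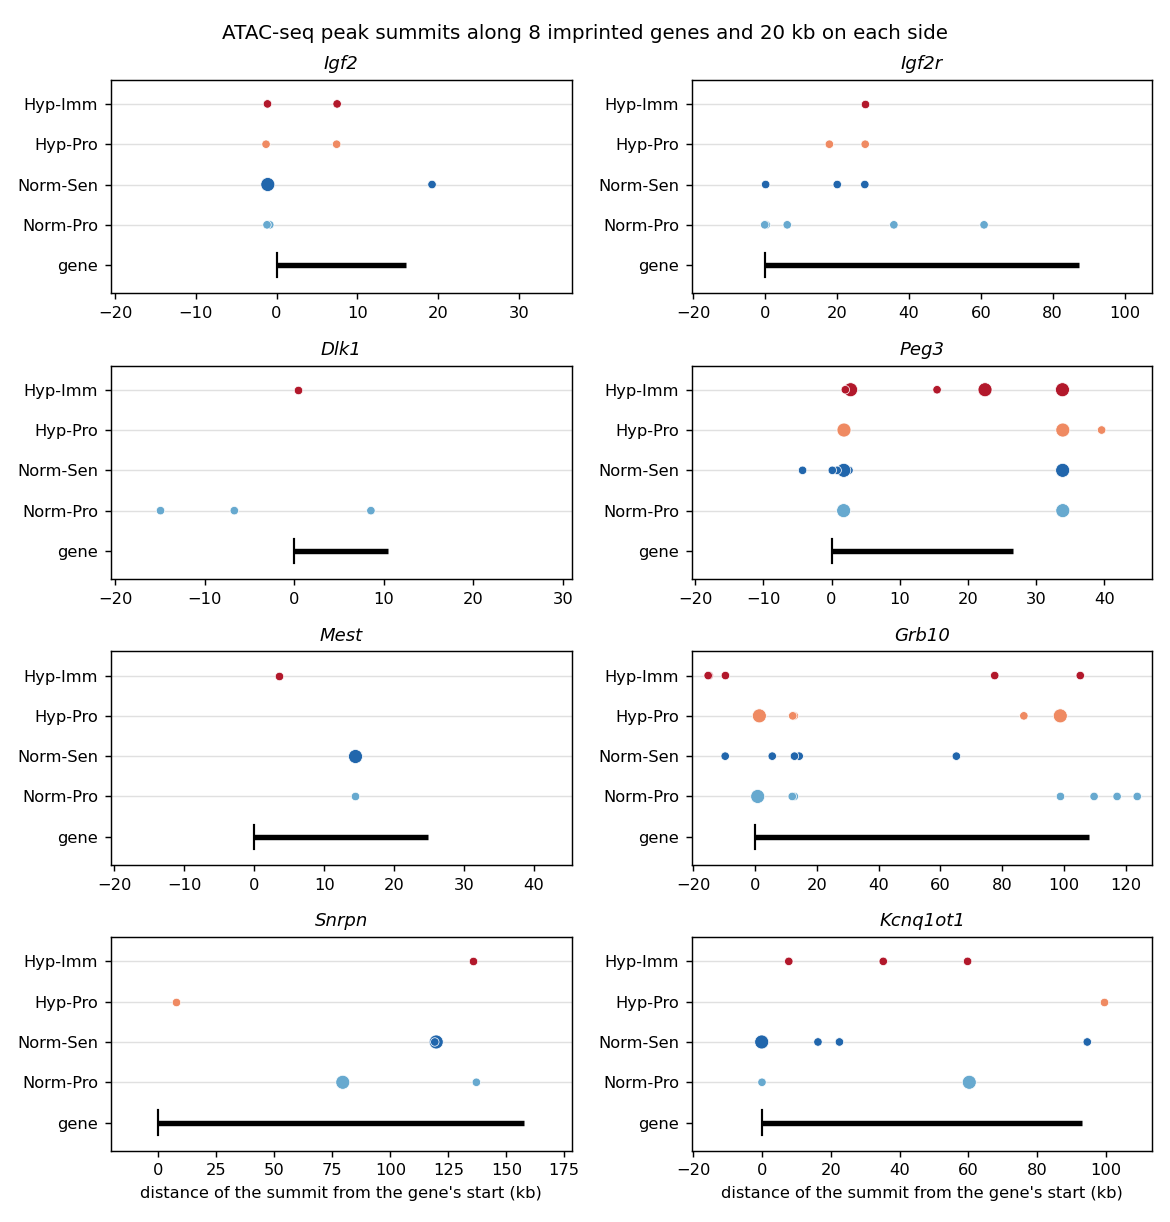
Summits of the ATAC-seq peaks of 8 genes by distance from the gene's outermost start in kb (horizontal axis, positive into the gene), with 1 row per library from Hyp-Imm at the top to Norm-Pro and the gene as a black bar. Large points are peaks in the top 20% of their list. Peg3 shows the 2 columns of points present in all 4 libraries, near 2 and 34 kb, and Mest and Kcnq1ot1 show start peaks in the Norm rows only.

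Most regions near the imprinted genes were found in 1 library. Of the 65 regions 54 were in 1 library (83.1%), 6 in 2 (9.23%), 3 in 3 (4.62%) and 2 in all 4 (3.08%). Over the whole series the shares were 85.6% in 1 library, 7.86% in 2, 3.4% in 3 and 3.09% in all 4.

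Between immortalized and senescent MEFs, 14 regions were in Hyp-Imm only, 18 in Norm-Sen only and 5 of 37 in both (95% exact interval of the share 4.54% to 28.8%, counting error only), and 8.43% of all regions were in both. Of the regions in 1 library of this pair 43.8% were in Hyp-Imm, beside 35.9% over all regions, and with the same number of peaks per library the order turned, to 16 in Hyp-Imm only and 10 in Norm-Sen only. Between immortalized and proliferating MEFs in 3% oxygen, 15 were in Hyp-Imm only, 11 in Hyp-Pro only and 4 in both, or 13.3% (3.76% to 30.7%) beside 9.36% of all regions. The share was 6.67% when a peak of one library had to cover 50% of the smaller peak of the other. Between senescent and proliferating MEFs in 20% oxygen, 17 were in Norm-Sen only, 20 in Norm-Pro only and 6 in both, or 14.0% (5.30% to 27.9%) beside 12.8%. Between proliferating MEFs in 3% and in 20% oxygen, 10 were in Hyp-Pro only, 21 in Norm-Pro only and 5 in both, or 13.9% (4.67% to 29.5%) beside 12.6%. In each pair the share of all regions lay within the interval of the imprinted genes.

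**Figure D4:**
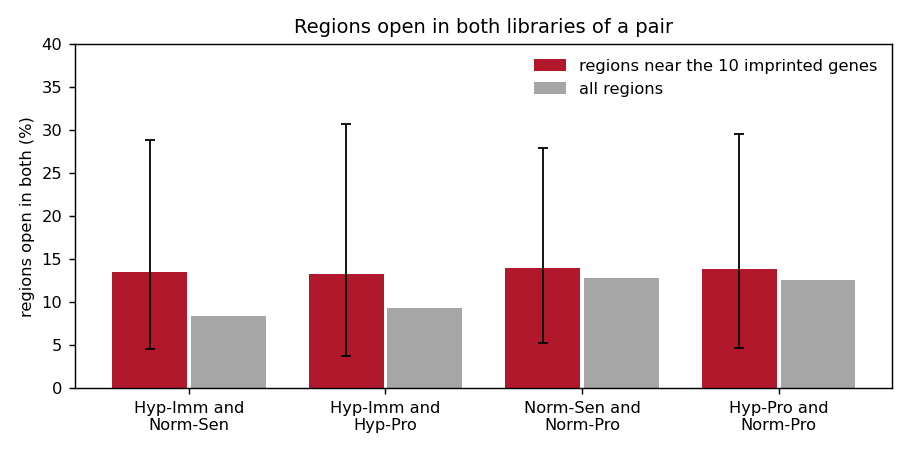
Share of regions open in both libraries of a pair, in percent of the regions open in either (vertical axis), for regions near the 10 imprinted genes and for all regions, with exact 95% intervals on the bars of the imprinted genes that cover counting error only. The bars of the imprinted genes stand between 13.3% and 14.0% and every interval includes the share of all regions.

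Tfcp2l1, a transcription factor known from pluripotent cells and kidney, had few peaks near these genes. In Hyp-Imm 1 peak lay between Dlk1 and Meg3, 44.1 kb from each start, so 2 of the 10 genes had a ChIP-seq peak within 200 kb, beside 11.2% of all genes. In Norm-Sen 1 peak lay 153 kb from the Igf2r start, so 1 of the 10 genes had one, beside 7.54%. Both counts rest on a single peak.

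The Hyp-Imm peak (chr12:109496749-109496992, in an intron of Gm34081) had a fold of 4.99 and a −log10 q of 3.03 and ranked 545 of 612. The Norm-Sen peak (chr17:12616829-12617002, in an intron of Slc22a2) had a fold of 7.52 and a −log10 q of 6.77 and ranked 294 of 393. Both were in the weaker part of their lists and no ATAC-seq peak of any library overlapped them. The Norm-Sen peak was 53.4% repeat sequence and the Hyp-Imm peak 9.02%. Neither held the Tfcp2l1 consensus with up to 2 mismatches, and with 3 the Norm-Sen peak had 1 match, shown in capitals below, and the Hyp-Imm peak 0.
Hyp-Imm Tfcp2l1 peak between Dlk1 and Meg3, chr12:109496749-109496992, plus strand: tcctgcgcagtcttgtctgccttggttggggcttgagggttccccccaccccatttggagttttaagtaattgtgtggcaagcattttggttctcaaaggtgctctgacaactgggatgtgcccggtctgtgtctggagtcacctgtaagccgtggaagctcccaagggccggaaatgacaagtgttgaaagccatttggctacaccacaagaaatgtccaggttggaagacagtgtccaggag
Norm-Sen Tfcp2l1 peak in Slc22a2, chr17:12616829-12617002, plus strand: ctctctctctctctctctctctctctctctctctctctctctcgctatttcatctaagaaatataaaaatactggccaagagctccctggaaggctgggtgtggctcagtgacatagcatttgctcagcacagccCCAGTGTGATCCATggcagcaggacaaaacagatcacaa

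The regions were compared in sequence with all regions, over the central 200 bp. The median number of CpG was 4 near the imprinted genes and 2 in all regions, the median GC content 53.5% and 52.5%, and the median share of repeat sequence 1.00% and 11.5%. The CTCF core GGNGGCAG occurred in 6 of the 65 regions (9.23%, 3.46% to 19%) and in 9.36% of all regions. The ZFP57 hexamer TGCCGC occurred in 5 (7.69%, 2.54% to 17.0%) and in 4.74%, and the YY1 core GCCATNTT in 6 (9.23%, 3.46% to 19%) and in 3.86%. The Tfcp2l1 consensus with up to 2 mismatches occurred in 0, which allows up to 5.52%, and in 0.671%. The paper, with another motif search, found Tfcp2l1 motifs in a far larger share of its ATAC-seq peaks. The 0 therefore holds for this strict pattern and does not show that Tfcp2l1 sites were absent. For each motif the share of all regions lay within the interval. Both strands were searched, and a match is a match of letters only.

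RefSeq promoters of 300 bases were matched for 9 of the 10 genes, all but H19. The median over 32851 promoters was 7 CpG. The promoter of Grb10 over its main start held 45 CpG, that of Igf2r 34, 1 of the 4 of Igf2 24 and both at the Mest inner start 17, whereas the 4 of Snrpn held 2 to 7 and the other promoters of the genes 1 to 14. Both promoters at the Mest inner start, which overlap, held 2 ZFP57 hexamers, and 1 promoter each of Igf2, Meg3, Snrpn and Grb10 held 1. Of all promoters 11.6% had the hexamer at least once. The CTCF core was in 1 promoter of Igf2 and 1 of Grb10, and in 12.6% of all promoters. The YY1 core was in no promoter of these genes and in 6.05% of all promoters. The Kcnq1ot1 promoter held 9 CpG and none of the 3 motifs.

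The imprinted genes were also set beside 58 other imprinted genes. Of these 19 had a start peak in Hyp-Imm (32.8%), 28 in Hyp-Pro (48.3%), 29 in Norm-Sen (50%) and 28 in Norm-Pro (48.3%), 10 in all 4 libraries and 16 in none. Most of the 58 are coding genes. Among all coding genes the shares were close to these, at 35.5% in Hyp-Imm, 49.5% in Hyp-Pro, 53.0% in Norm-Sen and 54.8% in Norm-Pro. The highest −log10 q of any library, which depends on its depth, was 25.1 at Inpp5f in Hyp-Pro (rank 108), 24.1 at Copg2 in Norm-Sen (rank 127), 19.8 at Trappc9 in Norm-Sen (rank 259), 19.6 at Ube3a in Norm-Sen (rank 269), 16.2 at Nap1l4 in Norm-Pro (rank 598) and 13 at Ppp1r9a in Norm-Sen (rank 1180), several of them genes whose imprinting is limited to some tissues or isoforms. The pattern of Mest and Kcnq1ot1 was shared by Plagl1 and Tssc4, that of Dlk1 and Snrpn by Snurf and Zrsr1, and that of Peg3 by Slc22a3, Snhg14 and Usp29. The Snurf peak is the Snrpn peak, and both Peg3 start peaks also lie within 1 kb of a Usp29 start. A Tfcp2l1 peak within 200 kb was found for 6 of the 58 in Hyp-Imm (Ddc, Inpp5f, Plagl1, Rian, Rtl1 and Snhg14), beside 11.2% of all genes, and for 4 in Norm-Sen (Airn, Plagl1, Slc22a2 and Slc22a3), beside 7.54%. For Rian and Rtl1 it was the peak between Dlk1 and Meg3, and for Airn, Slc22a2 and Slc22a3 the peak near Igf2r.

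Another list held 22 genes that take part in setting, keeping or erasing imprints, DNA methyltransferases and Tet genes among them. Of these 14 had an open start in Hyp-Imm (63.6%). The count was 18 in Hyp-Pro (81.8%), 19 in Norm-Sen (86.4%) and 19 in Norm-Pro (86.4%). Among all coding genes the share was 35.5% in Hyp-Imm, 49.5% in Hyp-Pro, 53.0% in Norm-Sen and 54.8% in Norm-Pro. The highest −log10 q of any library were at the histone demethylase gene Kdm1b (33.9 in Hyp-Pro), Yy1 (22.4 in Norm-Sen) and Smchd1 (17.2 in Norm-Pro), a gene of chromatin silencing. Of 21 genes of the IGF axis 7 had an open start in Hyp-Imm (33.3%), 10 in Hyp-Pro (47.6%), 12 in Norm-Sen (57.1%) and 14 in Norm-Pro (66.7%). These shares lay near those of all coding genes. The highest −log10 q were at the insulin receptor gene Insr (13.8 in Norm-Pro), Igf2bp2 (11.6 in Hyp-Pro), which encodes an RNA-binding protein, and Igfbp7 (9.45 in Norm-Sen), which encodes a binding protein of the family.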

How the data were processed

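ATAC-seq reads were aligned by the authors with Bowtie2 to mm10, pairs over 2 kb apart were removed, read starts were shifted to the Tn5 cut site and MACS2 called the peaks of each library (FDR under 0.05). ChIP-seq used ChIPmentation, Bowtie and MACS2, and the build was taken from the study's mm10 tracks. Each deposited peak has a fold enrichment (a ratio over the local background), a −log10 p and a −log10 q by MACS2. The deposited score is 10 times the −log10 q rounded down and was not used. Depth was derived from fold values, of which 19.6 to 30.9% per library were whole steps of the background (tolerance 0.001). The study's test on split reads needs reads and was not repeated.

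Peaks that overlap or touch were merged, and a region belonged to a library by 1 bp of overlap. Genes came from GENCODE vM21, sequences and repeats (lower case) from RefSeq GRCm38.p6. Intervals are exact Clopper-Pearson, for counting error only (scipy 1.17.1, pandas 2.3.3). No test was made, with 1 library per condition. The motif search and overlaps were tested on simulated data.

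Members and gene lists were chosen with earlier results of these data known. Named are all members, with their peaks where up to 6 lay in a library and otherwise the highest and the range; up to 6 other imprinted genes by −log10 q at a TSS, those with a ChIP-seq peak within 200 kb and up to 3 with a member's pattern; and up to 3 genes of each other list. Repeat-rich peaks were left out as an alternative chosen after seeing the data.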

Additional observations from a re-analysis of the deposited data

How the results depend on the processing

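With only peaks at a −log10 q of at least 5, peaks near the genes numbered 2 in Hyp-Imm, 4 in Hyp-Pro, 6 in Norm-Sen and 5 in Norm-Pro, genes with a start peak 0 in Hyp-Imm, 1 in Hyp-Pro, 3 in Norm-Sen and 1 in Norm-Pro, and Tfcp2l1 peaks in Hyp-Imm 0. In Hyp-Imm 10.5% of the ATAC-seq peaks near the genes passed this cut, and 4171 of the 37770 in its whole list. The share near the genes was 26.7% in Hyp-Pro, 26.1% in Norm-Sen and 19.2% in Norm-Pro. For the whole lists it was 24.7% in Hyp-Pro, 22.1% in Norm-Sen and 19.8% in Norm-Pro. The peaks near the genes thus fell about as much as the lists did. With the 37770 strongest peaks of each library, Norm-Sen and Norm-Pro had 13 peaks each, beside 19 in Hyp-Imm, and Norm-Pro 3 genes with a start peak. By the file names, peaks numbered 26 in Hyp-Imm, 23 in Hyp-Pro, 19 in Norm-Sen and 15 in Norm-Pro. The immortalized library then had more than the senescent one, whereas by the labels it had fewer. Regions in Hyp-Imm and not in Norm-Sen then numbered 23 and those in Norm-Sen and not in Hyp-Imm 16, beside 14 and 18 by the labels. Genes with a start peak numbered 5 in Hyp-Imm, 6 in Hyp-Pro, 3 in Norm-Sen and 3 in Norm-Pro by the file names. Within 50 kb of the genes there were 27 peaks in Hyp-Pro, 36 in Norm-Sen and 41 in Norm-Pro. Within 2 kb of a start 8 genes had a peak in Norm-Pro. Tfcp2l1 peaks within 100 kb of a start numbered 0 in Norm-Sen, and within 500 kb 3 in Hyp-Imm.

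Per library, the counts of peaks near the genes stayed within 1.5 times their value with 5 kb around the gene, as did the counts of genes with a start peak at 500 bp, and both did so without peaks that were 50% or more repeat sequence, an alternative chosen after seeing the data. The shares of regions in both libraries stayed within their intervals under every alternative run, which are wide. No paired analysis was possible because each condition had 1 library. Missing peaks cannot be told apart from peaks below the depth of a library.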
